A study of Mus musculus with 26 samples.

Results

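The genes described here are 5 members of the CCN family (Ccn1 to Ccn5), 3 intracellular targets of the co-activator YAP (Ankrd1, Amotl2 and Ajuba) and the growth factor gene Hbegf, 9 of the 52962 genes in the count table. They were chosen by name, with their levels in the 5 cell lines and their response to insulin already known from these same libraries. Their levels and fold changes are therefore given as a description, with their spread and without p-values. All 9 members were among the 15402 genes with more than 0.5 CPM (counts relative to the scaled library total) in at least 4 libraries, with 226 to 5618 counts per library.

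The study used 26 bulk RNA-seq libraries of mouse brown preadipocytes in 9 groups, to separate what the insulin receptor does with its ligand and kinase from what it does without them. All lines derive from 1 preadipocyte line, immortalized with SV40 T antigen, in which Cre adenovirus removed the insulin receptor and the IGF1 receptor. DKO cells are this double knockout, and the other lines are the same cells carrying a retrovirus for 1 form of the human insulin receptor (B isoform): the intact receptor (IR), a kinase-dead receptor (K1030R), a receptor without its C-terminal tail (∆CT), or a receptor that keeps only the juxtamembrane stretch of its intracellular part (JMO). The study also transduced the double knockout with an empty-vector retrovirus and selected transduced cells with hygromycin. The sample titles do not say whether the DKO libraries came from cells with that empty vector. Each line was deprived of serum for 6 h. IR, K1030R, ∆CT and JMO cells were then left without insulin (basal) or given 100 nM insulin for 15 min, and DKO cells were measured only without insulin, so no response of receptor-null cells was available. Groups had 3 libraries, except ∆CT with insulin, which had 2. Each receptor form was 1 transduced line, and the labels do not say whether libraries of a group came from separate cultures. A p-value below therefore measures the spread between these libraries, which may be technical.

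CCN proteins are secreted into the extracellular matrix, where they bind integrins, heparan sulfate proteoglycans and growth factors and change how cells adhere and respond. Ccn1 and Ccn2 are classical targets of YAP and TAZ, which the Hippo kinases keep out of the nucleus and which act through the TEAD DNA-binding factors. Serum and growth factors also induce Ccn1 within minutes, as they do other immediate-early genes. Hbegf encodes a membrane-bound EGF-family ligand that is released by shedding and activates the EGF receptor.

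TEAD factors recognize a short core, GGAATG, read on either strand, and the promoter sequences at hand were searched for it. A RefSeq promoter sequence (GRCm38.p6) was at hand for 4 of the 9 members, Ccn1, Ankrd1, Amotl2 and Ajuba, and each of these 4 windows of 250 bases before the start that RefSeq gives held at least 1 TEAD core, against 12.6% of all 32851 windows. The start differs between annotations: the Ankrd1 and Amotl2 windows overlap annotated exons and lie inside the GENCODE gene spans given further on, so by that annotation they are downstream of the outermost start, while those of Ccn1 and Ajuba lie outside it. The sequences are printed 5′ to 3′ on the strand of the gene, the TEAD core or its reverse complement in capitals. Those of Ccn1 and Ajuba are whole windows, and the others are short stretches around each match.
Ccn1 promoter, chr3:145649986-145650235, minus strand: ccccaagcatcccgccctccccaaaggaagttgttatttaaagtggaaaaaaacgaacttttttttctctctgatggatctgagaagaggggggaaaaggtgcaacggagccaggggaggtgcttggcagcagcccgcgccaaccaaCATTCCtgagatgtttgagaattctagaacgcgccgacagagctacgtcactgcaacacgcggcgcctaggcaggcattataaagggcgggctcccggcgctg
Ajuba promoter, chr14:54577662-54577911, minus strand: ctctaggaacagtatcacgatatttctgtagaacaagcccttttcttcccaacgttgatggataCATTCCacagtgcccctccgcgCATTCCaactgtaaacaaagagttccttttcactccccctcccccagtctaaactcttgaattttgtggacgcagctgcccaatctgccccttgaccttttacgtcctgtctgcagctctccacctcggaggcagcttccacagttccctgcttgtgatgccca
Ankrd1 distal core, chr19:36120039-36120064, minus strand: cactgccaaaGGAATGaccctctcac
Ankrd1 proximal core, chr19:36119952-36119977, minus strand: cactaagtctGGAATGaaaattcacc
Amotl2 core, chr9:102717729-102717754, plus strand: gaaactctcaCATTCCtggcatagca
Counted from the RefSeq start, the core of Ccn1 lay at -103 to -98, that of Amotl2 at -65 to -60, those of Ankrd1 at -210 to -205 and -123 to -118, and those of Ajuba at -186 to -181 and -164 to -159. None of the 4 windows held the AP-1 motif TGANTCA, the cAMP response element TGACGTCA, the EGR motif GCGGGGGCG or a CArG box, which 6.75%, 1.55%, 2.57% and 1.47% of all windows held. These matches describe letters in the window and not binding. The 4 genes were listed as known YAP targets, so a core was likely from that choice, and nothing is read from the share. For Ajuba, 25 bases shortly after the RefSeq start were found near the start of 0 GENCODE transcripts of the gene.

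The libraries held 17228982 to 24694828 counts. Mouse Insr read 22.3 to 24.8 CPM in DKO libraries and 65.5 to 99.7 CPM in the receptor lines, basal and insulin libraries together. In IR cells it read 65.9 to 69.3 CPM without insulin and 85.2 to 89.8 CPM with it. In ∆CT cells it read 74.6 to 81.8 CPM and then 96.4 to 99.7 CPM. In JMO and K1030R cells the basal and insulin ranges overlapped. The reads of the mouse gene and of the human receptor were not separated in the table. Igf1r was 27.1 ± 2.06 CPM (SD, n = 3) in DKO cells. Of 8 preadipocyte markers 4 passed the filter (Pdgfra, Pdgfrb, Cd34 and Ly6a), and the summed level of the list ran from 769 to 876 CPM, while Ebf2, Zfp423, Dlk1 and Prdm16 were below the filter. None of 6 mature adipocyte markers passed, with a summed level of at most 0.346 CPM. In bulk RNA, fewer cells that express a gene and less RNA per cell cannot be told apart.

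At an adjusted p below 0.05 (edgeR quasi-likelihood test, Benjamini-Hochberg adjustment over all 15402 genes), insulin called 3 members in IR cells (Ccn1, Ccn2 and Hbegf), where 1.87% of all genes were called. It called Ccn1 and Hbegf in ∆CT cells against 1.01% of all genes, and Ccn1 alone in JMO and in K1030R cells, against 0.364% and 0.156%. In the comparison with DKO, which uses the same DKO libraries for every line, 7 members were called in IR, 9 in ∆CT, 8 in JMO and 7 in K1030R cells, beside 49.8%, 46.3%, 34.3% and 41.6% of all genes, and with a minimum fold of 1.5 these counts were 5, 6, 2 and 4. For the difference between 2 lines in their response to insulin, Ccn1 and Hbegf were called for K1030R against IR (0.37% of all genes) and for JMO against IR (0.279%), and no member for ∆CT against IR (0.00649%; 1 member at an unadjusted p below 0.05, 0 by DESeq2, and Ccn1 without the filter on low counts) or JMO against K1030R (0.026%; 1 and 0). Since the members were chosen on these contrasts, nothing is read from these counts. Below, ranges are called apart where every library of 1 group is above every library of the other. With insulin, this held to higher levels for 8.31% of all genes in IR, 10.4% in ∆CT, 7.51% in JMO and 6.34% in K1030R cells, and to lower levels for 7.91%, 13%, 6.21% and 6.13%. Against DKO it held to higher levels for 28%, 26%, 23.5% and 25.8% of all genes in the same order, and to lower levels for 27%, 25.5%, 23.5% and 24.8%.

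Ccn1, an angiogenic matrix protein and the most insulin-responsive of the 9 genes, rose several-fold within 15 min in the lines with a working kinase and moved less in the K1030R and JMO lines. Its gene (ENSMUSG00000028195) lies at chr3:145646976-145649981 on the minus strand, with 5 exons. In IR cells Ccn1 read 37.2, 36.3 and 33 CPM without insulin and 209, 226 and 216 CPM with it. In ∆CT cells it read 26.2, 24.8 and 22.4 CPM and then 177 and 185 CPM. Every insulin library of both lines stood far above every basal library. In JMO cells, whose receptor has no kinase domain, Ccn1 went from 39.2, 42.4 and 38.4 CPM to 83.8, 67.6 and 76.3 CPM. In K1030R cells it went from 33.4, 29.3 and 29.6 CPM to 49.3, 50.7 and 47 CPM. The ranges did not overlap in either line, but the insulin libraries of both stayed below those of IR and ∆CT cells. On the log2 scale the changes were 2.61 ± 0.07 (SE) in IR, 2.89 ± 0.08 in ∆CT, 0.93 ± 0.07 in JMO and 0.67 ± 0.08 in K1030R cells. In CPM, the rise was 182 ± 5.06 (SE) in IR cells, 35.9 ± 4.85 in JMO cells and 18.2 ± 1.72 in K1030R cells, so the last 2 were 19.7% and 10% of that in IR cells. The response of K1030R cells was lower than that of IR cells by a log2 difference of -1.94 ± 0.10 (SE), and that of JMO cells by -1.69 ± 0.10. JMO and K1030R cells differed by 0.25 ± 0.10, with JMO the higher. The study reports no insulin or IGF1 receptor in DKO cells by qPCR or immunoblot. In K1030R and JMO cells it saw no receptor, IRS-1 or Akt phosphorylation by immunoblot after insulin. It does report other effects of insulin in these lines. Its phosphoproteomics found sites that insulin raised or lowered only in K1030R cells, and longer insulin treatment lowered glycolysis in JMO cells. Whether any receptor behind the reads counted as mouse Insr and Igf1r had a part in the response of the kinase-lacking lines was not tested.

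Without insulin, Ccn1 was highest in DKO cells, at 52.1, 50.1 and 45.4 CPM. The basal order was DKO, JMO, IR, K1030R and ∆CT, and IR and K1030R were the only neighbors whose ranges overlapped. ∆CT cells, at 24.5 ± 1.95 CPM (SD, n = 3), had the lowest basal level and, with insulin, the second-highest of all 9 groups. With insulin, K1030R cells reached 49.0 ± 1.89 CPM, beside 49.2 ± 3.44 CPM in DKO cells without insulin. Over the 9 groups, the highest and lowest means of Ccn1 were 8.89-fold apart.

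**Figure D1:**
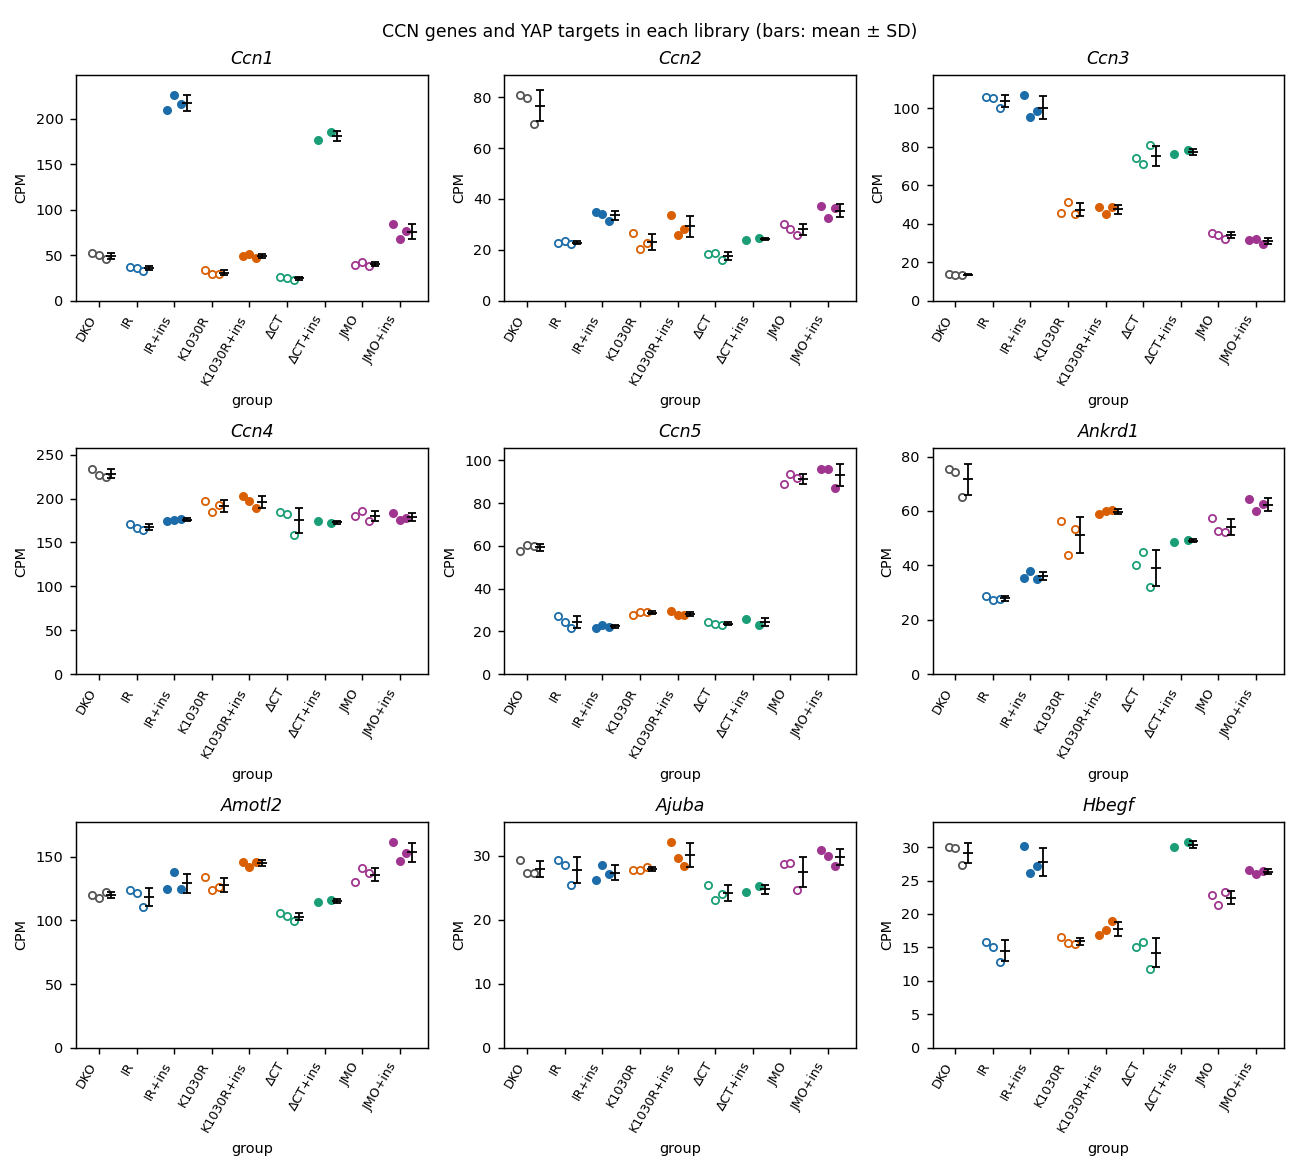
Level of each of the 9 genes in CPM (vertical axis, from 0) in every library of the 9 groups (horizontal axis; ins, insulin). Open circles are basal libraries, filled circles insulin libraries, and black bars the mean ± SD. Ccn1 and Hbegf rise with insulin in IR and ∆CT cells, Ccn2, Ccn4 and Ankrd1 are highest in DKO cells, Ccn3 is lowest there, and Ccn5 stands above the rest in JMO cells.

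Ccn2, the profibrotic connective tissue growth factor, differed more between lines than with insulin. Its gene (ENSMUSG00000019997) lies at chr10:24595442-24598683, and an exon of the antisense gene Gm15270 overlaps it. DKO cells had 80.8, 79.7 and 69.5 CPM, above every library of the other lines, with or without insulin. Basal IR cells had 22.8, 23.2 and 22.2 CPM. Basal JMO cells had 30.3, 28.0 and 25.7 CPM. The log2 difference from DKO was -1.75 in IR, -2.12 in ∆CT, -1.45 in JMO and -1.73 in K1030R cells. Insulin brought Ccn2 to 34.8, 34.2 and 31.4 CPM in IR cells, a change of 0.56 ± 0.10 (SE). In ∆CT cells it went from 18.4, 18.6 and 15.8 CPM to 23.8 and 24.4 CPM, a change of 0.46 ± 0.12. In JMO cells it reached 37.3, 32.4 and 36.3 CPM, a change of 0.33 ± 0.10. These 3 pairs of ranges were apart. In K1030R cells the ranges of 20.3 to 26.4 CPM and 25.6 to 33.8 CPM overlapped. The changes of IR and K1030R cells differed by -0.22 ± 0.14 (SE) and those of IR and JMO cells by -0.23 ± 0.14.

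Ccn3, which is often growth-restraining and can oppose Ccn2, was lowest in DKO cells, where Ccn2 was highest, and had no common response to insulin. Its gene (ENSMUSG00000037362) lies at chr15:54745702-54754039. DKO libraries had 13.6, 13.1 and 13.4 CPM. IR libraries had 106, 106 and 100 CPM without insulin. ∆CT libraries had 74.1, 70.9 and 81.1 CPM, K1030R libraries 45.7, 51.0 and 45.1 CPM, and JMO libraries 35.4, 34.1 and 32.2 CPM. The 5 basal groups were thus ordered IR, ∆CT, K1030R, JMO and DKO, and no 2 neighbors overlapped. The log2 difference from DKO was 2.96 in IR, 2.49 in ∆CT, 1.82 in K1030R and 1.34 in JMO cells. The lines with an active kinase were thus the highest without insulin. With insulin the changes were -0.05, 0.04, 0.00 and -0.13 in IR, ∆CT, K1030R and JMO cells, and the ranges were apart, to lower levels, only in JMO cells.

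Ccn4, a WNT-induced CCN protein, was the most evenly expressed of the 5. Its gene (ENSMUSG00000005124) lies at chr15:66891320-66923201. DKO libraries had 234, 227 and 225 CPM and all 23 others had less. Basal K1030R cells had 192 ± 6.70 CPM (SD, n = 3) and basal IR cells 167 ± 3.63 CPM, the ends of the receptor lines' order. Log2 differences from DKO lay between -0.45 in IR and -0.25 in K1030R cells. Insulin moved Ccn4 by 0.07 in IR cells, where the ranges were apart, and by -0.02 to 0.04 in the others, where they overlapped.

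Ccn5, which lacks the C-terminal module of the other CCN proteins, was the member that set JMO cells apart. Its gene (ENSMUSG00000027656) lies at chr2:163820861-163833146. Basal JMO libraries had 89.0, 93.6 and 91.6 CPM. DKO libraries had 57.6, 60.4 and 60.1 CPM. IR libraries had 27.4, 24.3 and 21.5 CPM, with K1030R and ∆CT cells at 28.6 ± 0.675 and 23.6 ± 0.627 CPM (SD, n = 3 each). JMO cells were thus above DKO cells by 0.62 on the log2 scale, whereas IR, ∆CT and K1030R cells were below them, with differences of -1.28, -1.33 and -1.05. JMO exceeded IR cells by 1.90. Insulin changed Ccn5 by -0.14 to 0.04 in the 4 lines, and the ranges overlapped in all of them.

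**Figure D2:**
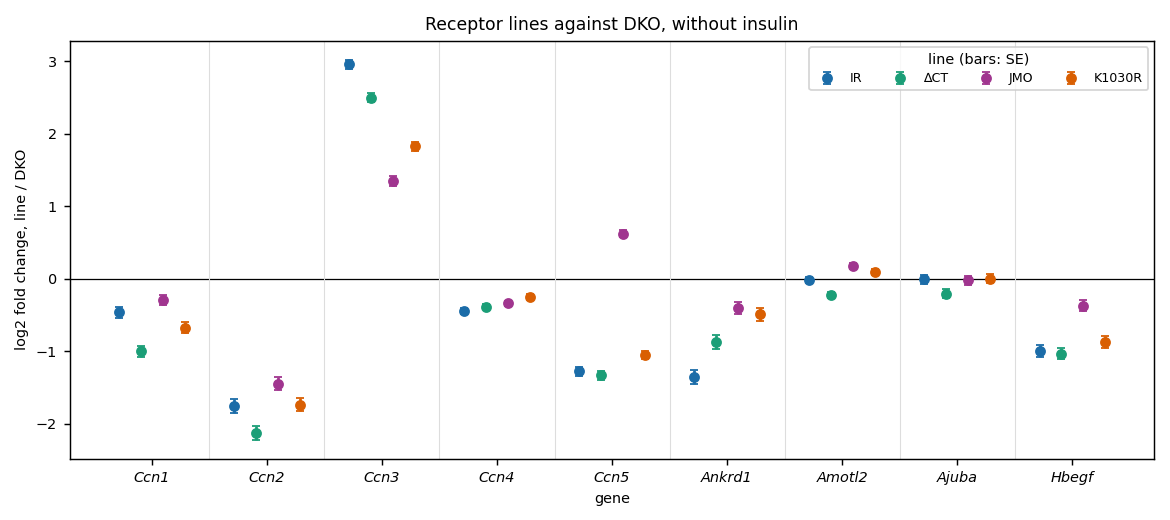
Log2 fold change of each gene without insulin, receptor line over DKO (vertical axis; 0 means equal), by gene (horizontal axis) and line (color), with bars for the SE. Ccn2 lies between -2.12 and -1.45 in all lines and Ccn3 between 1.34 and 2.96, while Ccn5 is above 0 only in JMO cells. The DKO libraries are shared by the 4 comparisons.

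Ankrd1 encodes a stress-responsive nuclear ankyrin-repeat protein and is among the most used readouts of YAP. Its gene (ENSMUSG00000024803) lies at chr19:36111961-36120099 on the minus strand. It had 75.5, 74.4 and 65.2 CPM in DKO cells, more than in any other library. Basal IR cells were lowest, with 28.9, 27.3 and 27.5 CPM, below every library of ∆CT cells at 40.1, 45.0 and 32.0 CPM. The log2 difference from DKO was -1.36 in IR, -0.87 in ∆CT, -0.49 in K1030R and -0.40 in JMO cells. K1030R and JMO cells, whose basal ranges overlapped, stood above IR cells by 0.87 and 0.95. Insulin brought IR cells to 35.4, 37.9 and 34.9 CPM. K1030R cells went from 56.3, 43.8 and 53.4 CPM to 58.9, 59.9 and 60.5 CPM, JMO cells from 54.0 ± 2.91 to 62.4 ± 2.32 CPM (SD, n = 3 each), and ∆CT cells to 48.6 and 49.5 CPM. In all 4 lines every insulin library was above every basal one. The rises in CPM were 8.20 ± 1.05 (SE) in IR, 9.98 ± 3.80 in ∆CT, 8.38 ± 2.15 in JMO and 8.60 ± 3.80 in K1030R cells. In log2 terms they were 0.37, 0.33, 0.21 and 0.23. Unlike the Ccn1 values, the response of K1030R cells was only -0.14 ± 0.14 (SE) from that of IR cells.

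Amotl2 encodes an angiomotin that binds YAP and holds it at junctions, and Ajuba a LIM protein that inhibits the LATS kinases. Amotl2 (ENSMUSG00000032531, chr9:102716672-102733418) differed little between lines, from 103 ± 3.0 CPM (SD, n = 3) in basal ∆CT cells to 136 ± 5.43 CPM in basal JMO cells, with DKO cells at 120 ± 2.55 CPM. With insulin it went from 130, 141 and 137 CPM to 162, 147 and 153 CPM in JMO cells. In K1030R cells it went from 134, 124 and 127 CPM to 146, 142 and 146 CPM. The log2 changes were 0.12 in IR, 0.16 in ∆CT and 0.18 in both JMO and K1030R cells, and the ranges were apart in all 4 lines, in IR cells by the narrowest margin. Ajuba (ENSMUSG00000022178, chr14:54567472-54577558, minus strand) was the steadiest member. Its group means ran from 24.2 to 30.1 CPM, 1.24-fold, and insulin changed it by -0.02 to 0.12. Its ranges were apart, to higher levels, only in K1030R cells and by a narrow margin. There the lowest insulin library read 28.43 CPM and the highest basal library 28.25 CPM.

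Hbegf (ENSMUSG00000024486, chr18:36504927-36515805, minus strand) responded to insulin, like Ccn1, more in IR and ∆CT than in JMO and K1030R cells. In IR cells it went from 15.8, 15.0 and 12.8 CPM to 30.2, 26.1 and 27.2 CPM. In ∆CT cells it went from 15.1, 15.7 and 11.7 CPM to 30.0 and 30.7 CPM. The IR libraries thereby came to overlap those of basal DKO cells, which had 29.9, 29.9 and 27.4 CPM. Those of ∆CT cells came to lie just above the DKO libraries. JMO cells began higher, at 22.8, 21.3 and 23.2 CPM, and reached 26.6, 25.9 and 26.4 CPM. K1030R cells went from 16.5, 15.7 and 15.5 CPM to 16.8, 17.5 and 19 CPM. Ranges were apart in all 4 lines, in K1030R cells by a narrow margin. The log2 changes were 0.93 ± 0.08 (SE) in IR, 1.1 ± 0.09 in ∆CT, 0.23 ± 0.07 in JMO and 0.16 ± 0.08 in K1030R cells. The rise in CPM was 29.2% of that of IR cells in JMO cells and 14.1% in K1030R cells. The difference in response from IR cells was -0.77 ± 0.12 (SE) in K1030R and -0.70 ± 0.11 in JMO cells.

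**Figure D3:**
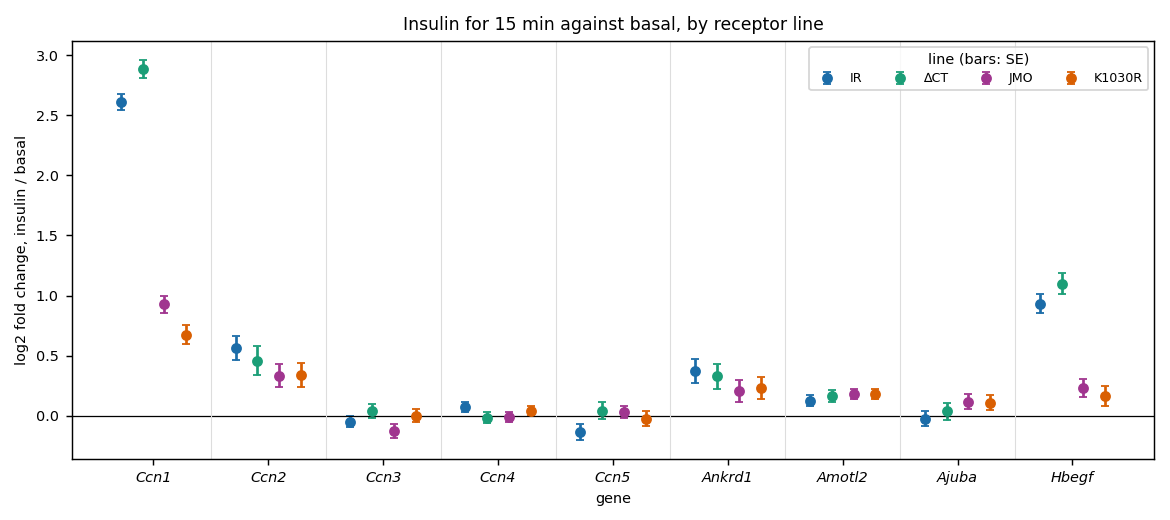
Log2 fold change of each gene after 15 min of insulin, insulin over basal (vertical axis; 0 means equal), by gene (horizontal axis) and line (color), with bars for the SE. Ccn1 and Hbegf separate IR and ∆CT cells from JMO and K1030R cells, while Ccn2, Ankrd1 and Amotl2 show changes of 0.12 to 0.56 in all 4 lines.

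The members did not share 1 level. Per kilobase of merged exons, DKO cells had most of Ccn4 (41.1 CPM per kb), Ccn5 (30.8) and Ccn2 (26.8) and least of Ccn3 (4.66). In IR cells with insulin, Ccn1 led with 108 CPM per kb, before Ccn3 with 34.9 and Ccn4 with 31.6. Among the CCN genes alone, Ccn3 was thus last in DKO cells, whereas in basal IR cells it was first with 36.2 CPM per kb and Ccn2 last with 7.94. Across the 9 group means (log2 CPM), the pattern of Ccn1 was most like that of Hbegf among the members (Pearson r = 0.79), that of Amotl2 like Ajuba (0.87), and Ccn3 ran opposite to Ankrd1 (-0.88). Among all genes tested, the patterns most like Ccn1 were those of Ccnl1 (0.990), Egr1 (0.983) and Junb (0.981), and that most like Hbegf was Jun (0.980). Ccn3 was most like P2rx6 and Smoc2 (0.993 each), Ccn5 like Traf2 (0.995), Ccn4 like Pls3 (0.982), Ankrd1 like Traf3ip1 (0.980), Ccn2 like Npas4 (0.975), Ajuba like Slc25a28 (0.952) and Amotl2 like Osbpl3 (0.947). These are descriptions over 9 points that share lines, and Npas4 was low, at 1.19 CPM on average.

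Other YAP/TAZ targets were taken from a published signature, without the members. Of its 18 remaining genes 17 were tested. With insulin 1 of 17 was called in each of the 4 lines, always F3 (ENSMUSG00000028128), the tissue factor that starts coagulation. That is 5.88% of the list, beside 1.87% of all genes in IR, 1.01% in ∆CT, 0.364% in JMO and 0.156% in K1030R cells. F3 went from 83.7, 86.0 and 81.2 CPM to 122, 126 and 123 CPM in IR cells. In ∆CT cells it went from 79.7, 75.6 and 74.0 CPM to 116 and 116 CPM. In JMO cells it went from 54.5, 49.8 and 55.0 CPM to 73.8, 69.9 and 74.2 CPM. K1030R cells showed the smallest step, from 68.7, 70.0 and 69.0 CPM to 82.9, 77.5 and 81.5 CPM, and in every line all insulin libraries were above all basal ones. By the edgeR quasi-likelihood test (Benjamini-Hochberg), the log2 change was 0.56 ± 0.04 (SE) in IR (adjusted p = 1.94e-13), 0.60 ± 0.04 in ∆CT (7.07e-13), 0.45 ± 0.04 in JMO (4.64e-09) and 0.22 ± 0.04 in K1030R cells (0.00571). In the same edgeR fit the response of K1030R cells was smaller than that of IR cells by a log2 difference of -0.34 (adjusted p = 0.000193). The difference between JMO and IR cells was -0.11 (edgeR adjusted p = 0.769), and that between JMO and K1030R cells 0.23 (edgeR adjusted p = 0.421). The call in K1030R cells was lost without basal replicate 3, insulin replicate 1 or insulin replicate 3 (edgeR adjusted p = 0.0504, 0.0676 and 0.0557). The promoter window of F3 held 2 AP-1 motifs, in capitals below, and no TEAD core. Of all windows, 6.75% held the AP-1 motif and 12.6% the TEAD core. Windows of the other signature genes were not searched, and the matches describe letters and not binding. Whether either motif had a part in the F3 response was not tested.
F3 distal AP-1, chr3:121723381-121723407, plus strand: gcggcgctgtTGAATCAcggttgagtc
F3 proximal AP-1, chr3:121723392-121723418, plus strand: gaatcacggtTGAGTCAcccctttcgg
They lay at -146 to -140 and -135 to -129 from the RefSeq start, in a window that overlaps an annotated exon.

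**Figure D4:**
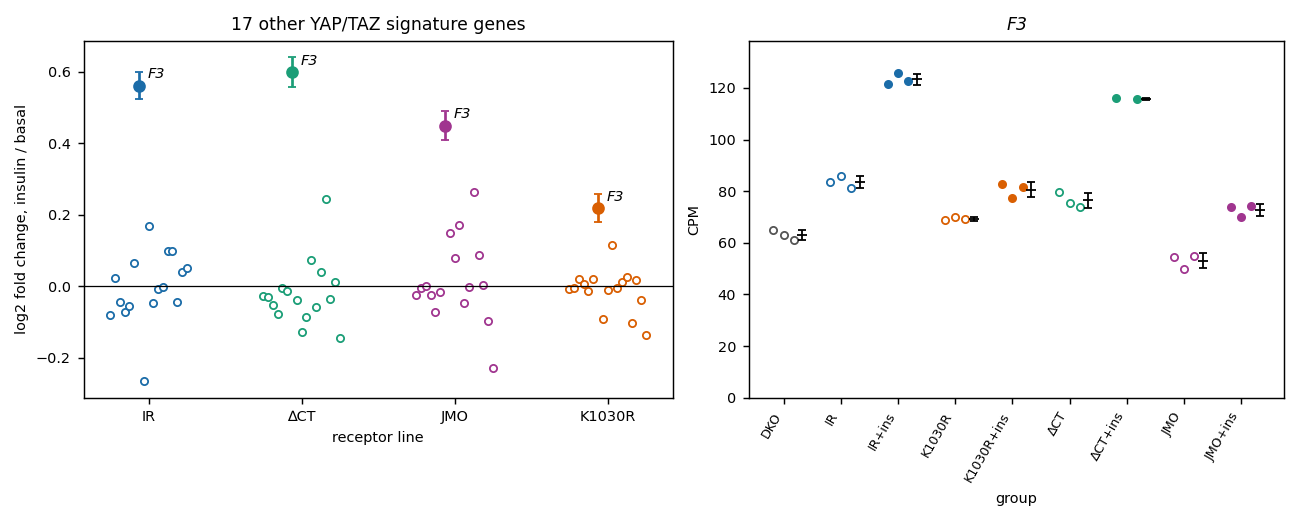
Left, log2 fold change with insulin (vertical axis) of the 17 tested signature genes in each receptor line (horizontal axis), F3 filled with its SE. Right, F3 in CPM in every library of the 9 groups, open for basal and filled for insulin, with mean ± SD bars. F3 stands above the other 16 genes in all 4 lines.

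The medians of the 17 changes with insulin were near 0, at 0.00 in IR, -0.03 in ∆CT, 0.00 in JMO and -0.01 in K1030R cells, close to those of all genes (-0.01, -0.01, 0.00 and 0.00). Between lines the signature genes did not move 1 way. By the same edgeR test, 8 were higher and 5 lower in IR than in DKO cells, 7 and 6 in ∆CT, 5 and 8 in JMO, and 6 and 6 in K1030R cells. These are 76.5%, 76.5%, 76.5% and 70.6% of the list, beside 49.8%, 46.3%, 34.3% and 41.6% of all genes, and with a minimum fold of 1.5 they fell to 3, 1, 1 and 1 genes. Tgfb2, a TGF-β ligand, was higher in all 4 lines, by 1.98 in IR, 1.44 in ∆CT, 1.32 in JMO and 1.27 in K1030R cells on the log2 scale. Foxf2, a mesenchymal transcription factor, was lower in IR (-0.90), ∆CT (-0.66), K1030R (-0.56) and JMO cells (-0.25). Rbms3, an RNA-binding protein, was higher in IR (0.64), K1030R (0.69), ∆CT (0.56) and JMO cells (0.46).

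The list of Hippo pathway transcripts left out Lats2, which was counted with the signature, and the members Amotl2 and Ajuba. Its genes, 22 of 22 tested, gave no call with insulin in any line by edgeR. At an unadjusted p below 0.05, 2 genes passed in IR cells, 1 in JMO cells and 0 in the others, DESeq2 called 0, and edgeR up to 2 in IR cells when 1 library was left out. Without insulin, 4 were higher and 7 lower in IR than in DKO cells, 3 and 10 in ∆CT, 3 and 7 in JMO, and 5 and 8 in K1030R cells. The called share was 50%, 59.1%, 45.5% and 59.1%, against the 49.8%, 46.3%, 34.3% and 41.6% of all genes, so that in IR cells it was at the background, and with a minimum fold of 1.5 it was 0 in every line. Sav1, the scaffold of the MST kinases, was lower in all 4 lines, at -0.48 in IR, -0.38 in ∆CT, -0.36 in JMO and -0.30 in K1030R cells. Amot, a paralog of Amotl2, was higher in IR (0.48), ∆CT (0.53) and K1030R cells (0.43) and was not called in JMO cells (0.07). Yap1 was called only in ∆CT cells (-0.09), and Wwtr1, which encodes TAZ, was lower in JMO (-0.33), K1030R (-0.19) and ∆CT cells (-0.17).

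Genes of the EGF family and its receptors, among which Hbegf acts, differed between lines. Of 15 genes 11 were tested. With insulin edgeR called 0 in every line, DESeq2 called 0, and at an unadjusted p below 0.05 there were 2 in IR and 3 in ∆CT cells and 0 in JMO and K1030R cells. Against DKO, 4 were higher and 5 lower in IR, 4 and 6 in ∆CT, 3 and 3 in JMO, and 4 and 5 in K1030R cells, or 81.8%, 90.9%, 54.5% and 81.8% of those tested, beside 49.8%, 46.3%, 34.3% and 41.6% of all genes. With a minimum fold of 1.5 the counts were 2, 4, 0 and 2, and by DESeq2, without that minimum, 8, 7, 5 and 8. Egfr, the receptor of Hbegf, was higher than in DKO cells by 1.78 in IR, 1.62 in ∆CT, 1.28 in K1030R and 0.63 in JMO cells. Ereg, the ligand epiregulin, was lower by differences of -1.91 in IR, -1.29 in ∆CT and -0.90 in K1030R cells and was not called in JMO cells (0.09). The ligand Btc was lower as well, at -0.59 in IR, -1.08 in ∆CT and -0.87 in K1030R cells. The receptor Erbb3 was at -0.67, -0.89 and -0.87 in the same order. The ligands Egf and Nrg1 went the other way. Egf was higher in IR (0.39), ∆CT (0.37) and JMO cells (0.58), and Nrg1 in K1030R (0.36), ∆CT (0.14) and JMO cells (0.58). Egf was low, at 2.65 CPM on average in DKO and 3.44 CPM in basal ∆CT cells, and the ranges of these groups overlapped.

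Integrins and coreceptors that bind CCN proteins, 9 of 9 tested, were called lower more often than higher in the receptor lines, by small differences. Against DKO, 2 were higher and 7 lower in IR, 2 and 7 in ∆CT, 1 and 6 in JMO, and 2 and 6 in K1030R cells. These are 100%, 100%, 77.8% and 88.9% of the list, beside 49.8%, 46.3%, 34.3% and 41.6% of all genes, and with a minimum fold of 1.5 only 1 gene, in JMO cells, was called. Itgb3, the β3 integrin subunit, was lower, at -0.45 in IR, -0.52 in ∆CT, -0.86 in JMO and -0.49 in K1030R cells. Lrp6, a WNT coreceptor, was higher in each line, by 0.45, 0.49, 0.29 and 0.52 in the same order. With insulin the only call was Lrp1, an endocytic receptor, in IR cells at -0.11 (edgeR adjusted p = 0.0319). This call was lost without IR basal replicate 1 or 2 or IR insulin replicate 1 or 3 (edgeR adjusted p = 0.145, 0.121, 0.0558 and 0.254). DESeq2 called 2 in IR cells and 0 in the others, and at an unadjusted p below 0.05 edgeR gave 3 in ∆CT, 1 in JMO and 0 in K1030R cells.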

How the data were processed

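Polyadenylated RNA was sequenced as single-end, reverse-stranded reads. The authors trimmed reads with fastp, quantified them on the Ensembl mouse transcriptome with kallisto and summed transcripts to genes with tximport, and deposited expected counts per gene (79.9% of values were whole numbers). Whether strand was used in counting is not given in the sources used here. The deposited expected counts were rounded. Genes above 0.5 CPM in at least 4 libraries were kept (15402), scaled by TMM and fitted as 9 group means with edgeR 4.0.16 (quasi-likelihood test) in R 4.3.3. P-values were Benjamini-Hochberg adjusted over all genes tested. SEs of log2 values were taken from the fit, and SEs of rises in CPM from the SDs and library numbers of the groups compared. CPM values use TMM-scaled totals. Symbols matched 15193 of the tested identifiers. Coordinates and exon lengths are from GENCODE on GRCm38 and promoters from RefSeq on GRCm38.p6. Motifs were searched on both strands.

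The members and the gene lists were chosen with earlier results of these data known. Named genes were all members, up to 4 called genes with the largest change per list and comparison (some of these are given as counts only), and for each member the genes with the highest Pearson correlation over the 9 group means. Values of Yap1, of Wwtr1 outside JMO cells, of Foxf2 in JMO and Rbms3 in IR cells of Egf and Nrg1 outside JMO cells and the uncalled values of Amot and Ereg were added after being seen. The scripts were tested on simulated data. Alternatives were RLE scaling, no filter, DESeq2 1.42.0, a minimum fold of 1.5 (the fold used in the study's own test), a replicate block and leaving out each library. Totals ranged from 17228982 to 24694828, with 226 to 5618 counts per library behind each member. Of the promoters, those of Ccn2, Ccn3, Ccn4, Ccn5 and Hbegf are not shown.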

Additional observations from a re-analysis of the deposited data

Results flagged for a closer look

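F3 differed between lines in its response to insulin: the log2 change in K1030R cells minus that in IR cells was -0.34 (edgeR's quasi-likelihood interaction test, Benjamini-Hochberg adjusted p = 0.000193), and every insulin library was above every basal library in both lines. Lats2, a Hippo kinase gene, changed in opposite directions with insulin in ∆CT (0.072) and JMO cells (-0.047), with ranges apart in both lines. Ranges were apart to higher levels for 10.4% of all genes in ∆CT cells, and to lower levels for 6.21% in JMO cells. The Lats2 difference between these lines was not tested, and neither of its changes was called.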

How the results depend on the processing

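Over 30 alternatives (the fold minimum apart), 3224 of the members' log2 values moved by less than 1 replicate SD and 16 by more, all without IR basal replicate 1 or 3 or ∆CT basal replicate 3, and no called value changed sign. Without a filter on low counts, insulin called 714 genes in IR, 399 in ∆CT, 248 in JMO and 178 in K1030R cells (288, 155, 56 and 24 with it), and the differences in response became 293 for K1030R minus IR, 141 for ∆CT minus IR, 248 for JMO minus IR and 161 for JMO minus K1030R (57, 1, 43 and 4). Ankrd1 was then also called in all 4 lines, Ccn2 and Amotl2 in K1030R, ∆CT and JMO cells, and Ccn1 for ∆CT minus IR (0.29). With a minimum fold of 1.5, insulin called 34, 33, 6 and 0 genes in the same lines, the comparisons with DKO 1061, 969, 325 and 814, and the differences in response 19, 0, 18 and 0, each in the order above. At this minimum fold, an unadjusted p below 0.05 was reached by 59 in K1030R with insulin and 86 and 79 for ∆CT minus IR and JMO minus K1030R. With the same minimum fold and adjusted p, the signature list had 0 calls with insulin in each line, 0 for K1030R minus IR, and 3 in IR and 1 in each other line against DKO. The members had 2, 2, 1 and 0 calls with insulin in IR, ∆CT, JMO and K1030R cells and 5, 6, 2 and 4 against DKO, and the Hbegf calls for K1030R minus IR and JMO minus IR were lost. DESeq2 and RLE scaling kept every such count within 1.5 times.

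Leaving out 1 library gave 131 to 1063 calls with insulin in IR, 100 to 174 in ∆CT, 26 to 70 in JMO and 10 to 30 in K1030R cells, 52 to 182 for K1030R minus IR, 1 to 3 for ∆CT minus IR, 38 to 97 for JMO minus IR and 2 to 6 for JMO minus K1030R. The signature list in K1030R cells with insulin gave 0 to 1. The 1063, 182 and 97 came without IR basal replicate 3. Members called with insulin numbered 3 to 4 in IR, 2 to 3 in ∆CT and 1 to 2 in JMO and K1030R cells. With 1 of the 2 ∆CT insulin libraries left out, the other is assumed to vary like the other groups. Same-numbered libraries did not deviate together by their median (r = -0.0011 over 100 pairs, beside -0.0016 over 200 pairs of different number). The labels do not say whether the numbers pair the libraries, and a median over pairs cannot exclude this for some of them. The fit with a replicate block called 342, 184, 64 and 26 genes with insulin in IR, ∆CT, JMO and K1030R cells. The cause of these shifts was not tested.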
